A study of Arabidopsis thaliana with 23 samples.

Results

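The data described here are the 21- and 22-nt small RNAs of inflorescences of the *zmp-2* mutant and of wild type (WT) from the second of the 2 sequencing batches named in the labels, batch B. All 3 libraries labelled *zmp-2* in that batch were compared with all 3 libraries labelled WT in it, which together are 6 of the 23 libraries of the series. The measurement was the number of 21-nt reads, and separately of 22-nt reads, whose 5′ end fell in each 100-bp window of chromosomes 1 to 5, together with the 24-nt reads of the same window. The comparison asks which windows of 21- and 22-nt reads change when ZMP is reduced, and whether the 24-nt reads of those windows change with them.

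ZMP is a protein identified by the study as one that interacts with RNA polymerase IV (Pol IV), and its gene lies on the minus strand at chr5:25493707-25497764. The *zmp-2* allele is a T-DNA insertion that lowers the *ZMP* transcript level, so *zmp-2* plants have less ZMP and need not lack it wholly. All libraries were made from the Col-0 ecotype grown under long days, and the 3 libraries of each genotype are biological replicates. Batch A holds a further 3 *zmp-2* and 3 WT libraries and 3 libraries of *zmp-2* plants carrying a ZMP-YFP transgene under the *ZMP* promoter, and batch B also holds 3 libraries of the double mutant *zmp-2 nrpd1-3*, in which the largest Pol IV subunit is also lost. They are used below only beside the batch B values.

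Plants make small RNAs of several lengths with different Dicer enzymes. Pol IV transcripts are made double-stranded by RDR2 and are cut mainly by DCL3 into the 24-nt siRNAs that guide DNA methylation, while DCL2 and DCL4 can cut the same double strands into 22- and 21-nt siRNAs. The bulk of 21-nt reads in a WT library, however, are microRNAs (miRNAs), which DCL1 cuts from hairpin precursors independently of Pol IV, and trans-acting siRNAs (ta-siRNAs), which DCL4 cuts from TAS transcripts after a miRNA has cleaved them. Reads of 21 and 22 nt thus come from loci of different origin, and the results are given first for windows in general and then for the MIR and TAS genes.

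The results below turn on a small number of sequences, which are shown first. The first 3 are whole 100-bp windows in which 21- or 22-nt reads differed strongly between the 2 genotypes, read from the plus strand of the RefSeq TAIR10.1 assembly in lower case. They include a window in the pseudogene AT3G22955 at chr3:8138701-8138800, whose 21- and 24-nt reads in batch B were found in WT and not in *zmp-2*. The others are a window in an intron of AT1G14780 at chr1:5091801-5091900, whose reads were found almost only in *zmp-2*, and a window in the coding sequence of AT5G28560 at chr5:10567001-10567100, in which 22-nt reads outnumbered 24-nt reads.
AT3G22955 window: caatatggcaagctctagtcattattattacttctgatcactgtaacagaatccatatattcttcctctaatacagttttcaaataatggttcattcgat
AT1G14780 window: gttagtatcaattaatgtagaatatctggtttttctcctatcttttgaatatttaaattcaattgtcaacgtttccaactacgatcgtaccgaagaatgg
AT5G28560 window: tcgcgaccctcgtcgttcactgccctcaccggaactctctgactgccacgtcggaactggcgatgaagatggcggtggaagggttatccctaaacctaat

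The AT3G22955 and AT1G14780 windows each held 31% G and C bases, and the AT5G28560 window held 57%. The other sequences are some of the mature miRNAs whose windows were called and are described below. They are taken from the RefSeq annotation of the same assembly, with bases 2 to 8, the seed, in capitals. miR408-3p lies at chr2:19319933-19319953, miR398a-3p at chr2:1041012-1041032, miR398b-3p at chr5:4691107-4691127 and miR398b-5p at chr5:4691033-4691053, all on the plus strand. miR165b lies at chr4:369856-369876 on the minus strand, miR166g at chr5:25504882-25504902 on the plus strand and miR395b at chr1:9364540-9364560 on the plus strand.
miR408-3p: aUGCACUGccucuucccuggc
miR398a-3p: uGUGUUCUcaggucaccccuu
miR398b-3p: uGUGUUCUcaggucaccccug
miR398b-5p: aGGGUUGAuaugagaacacac
miR165b: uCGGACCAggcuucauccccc
miR166g: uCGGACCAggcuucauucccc
miR395b: cUGAAGUGuuuggggggacuc

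miR398a-3p and miR398b-3p share one seed and differ in the last base. miR165b and miR166g also share a seed, and the whole miR166g sequence is found at 7 loci of the genome, so a read of it cannot be tied to 1 locus by sequence alone. The miR398b-3p and miR165b sequences are each found at 2 loci and that of miR395b at 3 loci.

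Levels are given as deposited in RPM, the reads of a window per 1000000 mapped reads of all lengths. The 6 libraries held 2.31 to 5.32 M mapped reads (M for 1000000), and 1 read was worth 0.188 to 0.433 RPM, which sets the precision of low windows. A window was tested when it held at least 10 counts summed over the 6 libraries, and it was called a hypo-DSR (differential small RNA region, lower in *zmp-2*) or a hyper-DSR (higher) at a change of at least 2-fold with a false discovery rate (FDR) of at most 0.05 in edgeR's quasi-likelihood test with Benjamini-Hochberg adjustment. The *ZMP* gene itself held no 21-nt read in WT and 0, 1 and 1 reads in *zmp-2*, so small RNAs give no check of the genotype labels. Each library is a whole inflorescence sample, in which fewer cells of a type and less small RNA per cell cannot be told apart, and the tissue was not checked against markers because small RNA windows hold none.

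In *zmp-2* plants far more 21- and 22-nt windows lost reads than gained them. At 21 nt 14456 windows were tested, and 1644 of them (11.4%) came out as hypo-DSRs and 461 (3.19%) as hyper-DSRs. At 22 nt the numbers were 3177 (13.9%) and 767 (3.35%) of 22908. At 24 nt, in the same libraries, they were 5553 (5.63%) and 2844 (2.89%) of 98561.

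The deposited files also give each count scaled to the reads of 45S ribosomal RNA, as reads per 1000000 rRNA reads (RPMR), and this scaling moved the median log2 fold change of all 21-nt windows from -0.12 to -0.31 and that of all 22-nt windows from -0.20 to -0.39. Under it all 1644 and 3177 hypo-DSRs were called again, among 1818 and 3538, but only 290 of the 461 hyper-DSRs of 21 nt and 507 of the 767 of 22 nt were. For 24-nt reads the hyper-DSRs were 33.9% of all calls in RPM and 23.0% in RPMR. The number of hyper-DSRs thus depended on the scaling by more than 1.5-fold, and the hypo-DSRs did not.

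Of the 5 hypo-DSR loci of 21 nt with the smallest FDR, 4 lay in genes and pseudogenes whose windows held more 24-nt than 21-nt reads, and the other was *MIR408*, which is described with the MIR genes. In the coding sequence of AT2G16030, at chr2:6974701-6974800, the 21-nt level was 31.2, 44.9 and 38.1 RPM in the 3 WT libraries and 3.00, 2.26 and 3.47 RPM in the 3 *zmp-2* libraries. The groups did not overlap, which the rule for choosing these loci required, and the log2 fold change was -3.72 (SE 0.279, FDR = 6.4e-16). The 24-nt reads of the window fell alongside, from 97.9, 103 and 96.0 RPM to 9.26, 7.92 and 8.67 RPM.

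The AT3G22955 window shown above held 15.2, 26 and 16.6 RPM of 21-nt reads in WT and none in any *zmp-2* library, at least 20.4-fold lower against a floor of 3 counts per library. Its 24-nt reads went from 69.9, 99.1 and 77.1 RPM to none, at least 86.7-fold lower. In batch A the 24-nt mean was 71.6 RPM in WT, 0.977 RPM in *zmp-2* and 0.0357 RPM in the ZMP-YFP plants. The reads were thus near 0 also in plants with the transgene. Every 21-nt sequence of this window occurs once in the genome.

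AT2G06555 held the hypo-DSR locus with the most windows, 22 windows of 22-nt hypo-DSRs over 2600 bp at chr2:2604101-2606700. At chr2:2604801-2604900, within its coding sequence, the 21-nt level was 37.4, 32.6 and 34.3 RPM in WT and 2.18, 3.4 and 5.63 RPM in *zmp-2* (log2 fold change -3.29, FDR = 4.2e-14). The lowest WT value stood above the highest *zmp-2* value by more than the spread of either group.

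Losses of 22-nt reads were of the same kind. In the pseudogene AT2G15850, at chr2:6903001-6903100, the 22-nt level was 198, 210 and 195 RPM in WT and 18.8, 20.4 and 21.2 RPM in *zmp-2* (log2 fold change -3.32, SE 0.174, FDR = 1.4e-46). The groups were far apart, and the libraries within each were close. Its 21-nt level fell from 46.6 ± 2.44 to 6.28 ± 0.238 RPM (mean ± SD, n = 3), and its 24-nt level from 741 ± 59.9 to 115 ± 11.4 RPM. A window between genes at chr2:6377401-6377500 held 73.8, 67.5 and 73.0 RPM of 22-nt reads in WT and 3.27, 6.23 and 5.63 RPM in *zmp-2* (log2 fold change -3.84). It lay 1376 bp from the nearest annotated gene and within a pericentromeric region.

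The AT5G28560 window was unlike the others in that 22-nt reads were its most frequent length. Its 22-nt level was 41.1, 47.4 and 39.3 RPM in WT and 1.09, 1.42 and 2.6 RPM in *zmp-2* (log2 fold change -4.72, SE 0.287, FDR = 6.1e-38). Its 24-nt level was 25.9, 26.7 and 27.1 RPM in WT and 2.72, 3.4 and 0.867 RPM in *zmp-2*. Both lengths fell, the 22-nt reads by 4.72 and the 24-nt reads by 3.4 on the log2 scale, and the double mutant held no 22-nt read there.

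Gains were also found in windows of mostly 24-nt reads. AT2G16580 (*SAUR8*), a member of the small auxin-upregulated RNA family, held the largest hyper-DSR locus of either length, with 10 windows of 22-nt hyper-DSRs at chr2:7184301-7185300. In its coding sequence at chr2:7184701-7184800 the 21-nt level was 10.5, 7.12 and 9.60 RPM in WT and 63.7, 49.5 and 52.0 RPM in *zmp-2* (log2 fold change 2.59, SE 0.223, FDR = 6.4e-14). The 24-nt level of the window rose from 21.4 ± 3.43 to 176 ± 16.0 RPM (n = 3).

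The AT1G14780 intron window went from almost empty to filled. Its 21-nt level was 0.188, 0 and 0 RPM in WT, where the first value is 1 read, and 16.3, 8.49 and 4.77 RPM in *zmp-2*. Its 22-nt level was 0.376, 0 and 0 RPM in WT and 22.6, 15.8 and 10.4 RPM in *zmp-2*, and its 24-nt level was 0.376, 0.491 and 0 RPM in WT and 148, 134 and 89.7 RPM in *zmp-2*. All 3 lengths were hyper-DSRs, and the *zmp-2* libraries did not overlap with WT at any of them.

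*NLP7*, which encodes a transcription factor of the nitrate response, held a 22-nt hyper-DSR in its coding sequence at chr4:12483701-12483800, with 0.752, 0.982 and 0 RPM in WT and 17.4, 12.2 and 9.10 RPM in *zmp-2* (log2 fold change 4.34, FDR = 1.7e-20). The pseudogene AT3G42766 gained 22-nt reads at chr3:14861601-14861700, from 1.13, 0.491 and 0.873 RPM to 13.6, 17.3 and 17.3 RPM (log2 fold change 4.17), whereas its 21-nt reads were not called (log2 fold change 1.76, FDR = 0.067). A window between genes at chr5:11229201-11229300, in which only 21% of positions start a 21-nt sequence that is unique in the genome, held 9.39, 7.85 and 9.60 RPM of 21-nt reads in WT and 40.6, 50.7 and 41.6 RPM in *zmp-2* (log2 fold change 2.30). None of the 20 fold changes named by the rule for loci, of which 1 is that of *MIR408* and the others lie outside MIR genes, lost its call when any of the 6 libraries was left out or under the other 6 settings tried. The rule took the smallest FDR with a call under RPMR and no overlap of the groups. Keeping the RPMR call was thus fixed in advance, and the other calls were made likely by the choice.

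**Figure D1:**
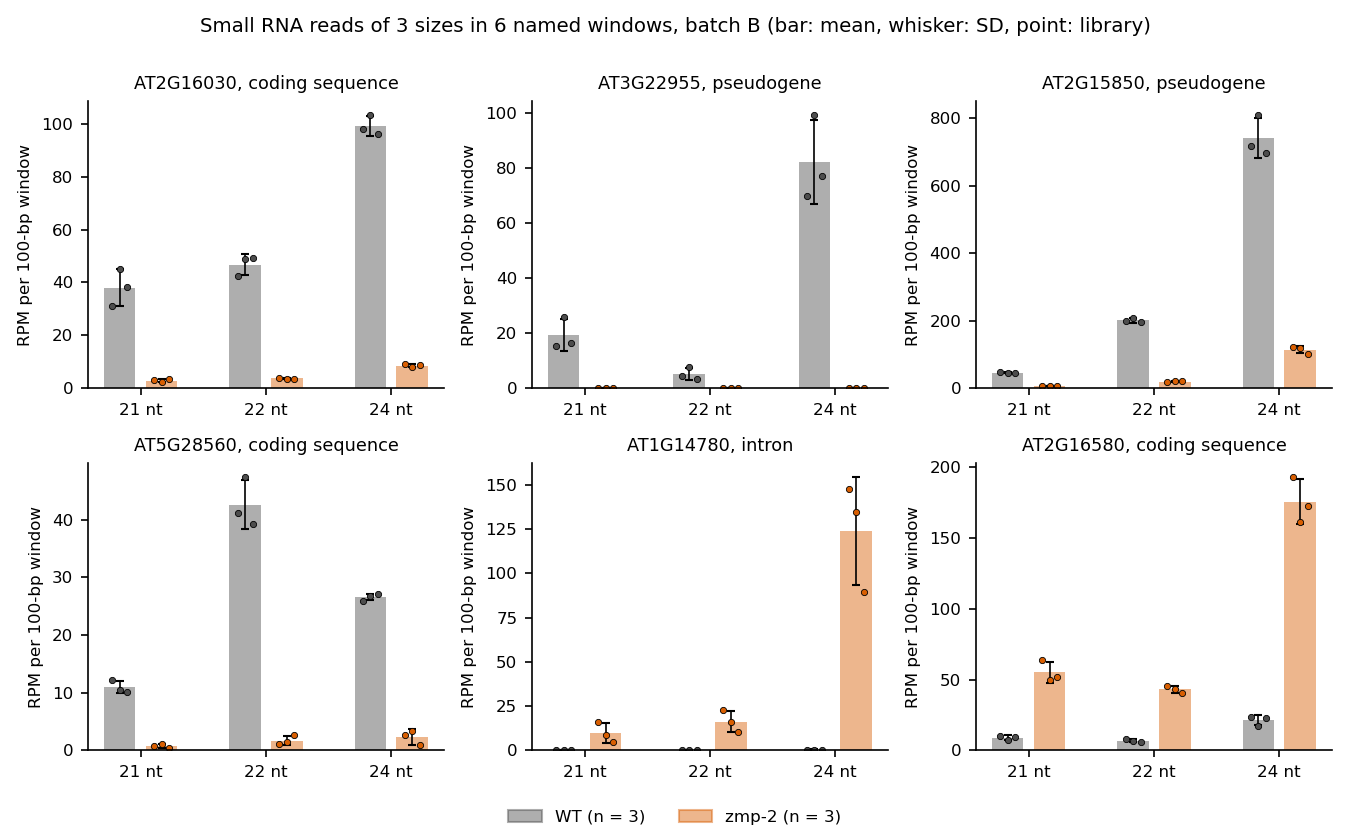
Level of 21-, 22- and 24-nt reads in 6 of the windows described above, in RPM on the vertical axis, where bars are the mean of 3 libraries, whiskers 1 SD and points single libraries of WT and *zmp-2* from batch B. In the AT2G16030, AT3G22955, AT2G15850 and AT5G28560 windows every *zmp-2* point lies below every WT point at all 3 lengths, and in the AT1G14780 and AT2G16580 windows every one lies above. Lack of overlap at 21 or 22 nt was part of the rule that chose these windows.

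The hypo-DSRs were spread over all 5 chromosomes and the hyper-DSRs less evenly. Joining called windows at most 200 bp apart gave 863 hypo-DSR loci and 343 hyper-DSR loci for 21 nt, of which 456 and 284 were single windows, and 1450 and 540 loci for 22 nt, of which 706 and 425 were single windows. The longest stretch of 21-nt hypo-DSRs covered 1300 bp of AT4G03580 (chr4:1597201-1598500) with 11 windows. Chromosome 5 held 183 of the 461 hyper-DSRs of 21 nt and 269 of the 767 of 22 nt, against 291 of the 1644 and 661 of the 3177 hypo-DSRs and 3148 of the 14456 and 4976 of the 22908 windows tested.

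The 2 directions also differed in sequence context. Windows between genes made up 66.5% of the 21-nt hypo-DSRs, 54.7% of the hyper-DSRs and 63% of all windows tested. Pseudogene windows made up 13.9% of the 21-nt hypo-DSRs and 18.7% of the hyper-DSRs against 15.2% of all, and 17.8% and 37.3% against 22.8% for 22 nt. Pericentromeric windows were 44.1% and 41.2% of the 21-nt hypo- and hyper-DSRs against 33.1% of all, and 49.8% and 49.2% of the 22-nt ones against 41.1%.

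Windows in which at least 90% of positions start a unique 21-nt sequence made up 74.7% of the 21-nt hypo-DSRs but 33.2% of the hyper-DSRs, against 46.0% of all windows tested. For 22 nt these shares were 68.6%, 27.1% and 40.6%. A larger share of hyper-DSRs than of hypo-DSRs thus lay in repeated sequence, where the authors placed reads of several possible origins by the density of unique reads nearby. The part of this placement in the gains was not tested. The median G and C content was 38% in the hypo-DSRs of either length, 38% in the 21-nt and 42% in the 22-nt hyper-DSRs, and 37% and 38% in all windows tested.

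The windows overlapped strongly between the 2 lengths. Of 12859 windows tested at both 21 and 22 nt, 1413 were hypo-DSRs at both, which is 87.8% of the 1610 hypo-DSRs of 21 nt and 56.3% of the 2512 of 22 nt. Hyper-DSRs at both numbered 249, or 60% of 415 and 47.5% of 524, and no window was called in opposite directions. Both lengths came from the same libraries and share their scaling.

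To place these sets among the genotypes, the median level per window was taken in each group of libraries. The batch B values chose the sets and are given as a description. The median 22-nt hypo-DSR window held 3.25 RPM in WT and 0.470 RPM in *zmp-2*, and the median 21-nt hypo-DSR window 2.76 and 0.383 RPM. The median hyper-DSR window held 0.464 RPM in WT and 2.61 RPM in *zmp-2* for 22 nt and 0.498 and 2.59 RPM for 21 nt.

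Libraries that had no part in choosing the windows stood in the same order. In batch A the 22-nt hypo-DSR windows had a median of 3.48 RPM in WT, 0.755 RPM in *zmp-2* and 3.41 RPM in *zmp-2* plants carrying ZMP-YFP, and the single libraries ran from 3.20 to 3.71, from 0.657 to 0.910 and from 2.6 to 3.90 RPM. The 22-nt hyper-DSR windows had medians of 0.541, 2.07 and 0.800 RPM. For 21 nt the hypo-DSR medians were 3.09, 0.639 and 2.88 RPM and the hyper-DSR medians 0.472, 1.92 and 0.724 RPM. In all 4 sets the ZMP-YFP libraries lay on the WT side of the *zmp-2* libraries, without overlap.

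In the double mutant *zmp-2 nrpd1-3* 1402 of the 1644 hypo-DSR windows of 21 nt (85.3%) and 2704 of the 3177 of 22 nt (85.1%) held no read of that length in any of the 3 libraries. For hyper-DSRs the shares were 86.3% and 93.4%. In *zmp-2* of batch B itself 20.7% and 15.5% of the hypo-DSR windows were empty in all libraries, and no hyper-DSR window was. The share of empty windows in the double mutant was not taken over all windows tested, so these shares cannot be called particular to the DSRs. The mean 21-nt level over the hypo-DSRs of the double mutant, 6.28 RPM, was nonetheless above that of WT, 5.70 RPM, since 98.3% of the reads lay in 10 windows, and the double mutant libraries held 1.18 to 1.39 M mapped reads beside 6.04 to 7.72 M 45S rRNA reads and were not put to any test.

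**Figure D2:**
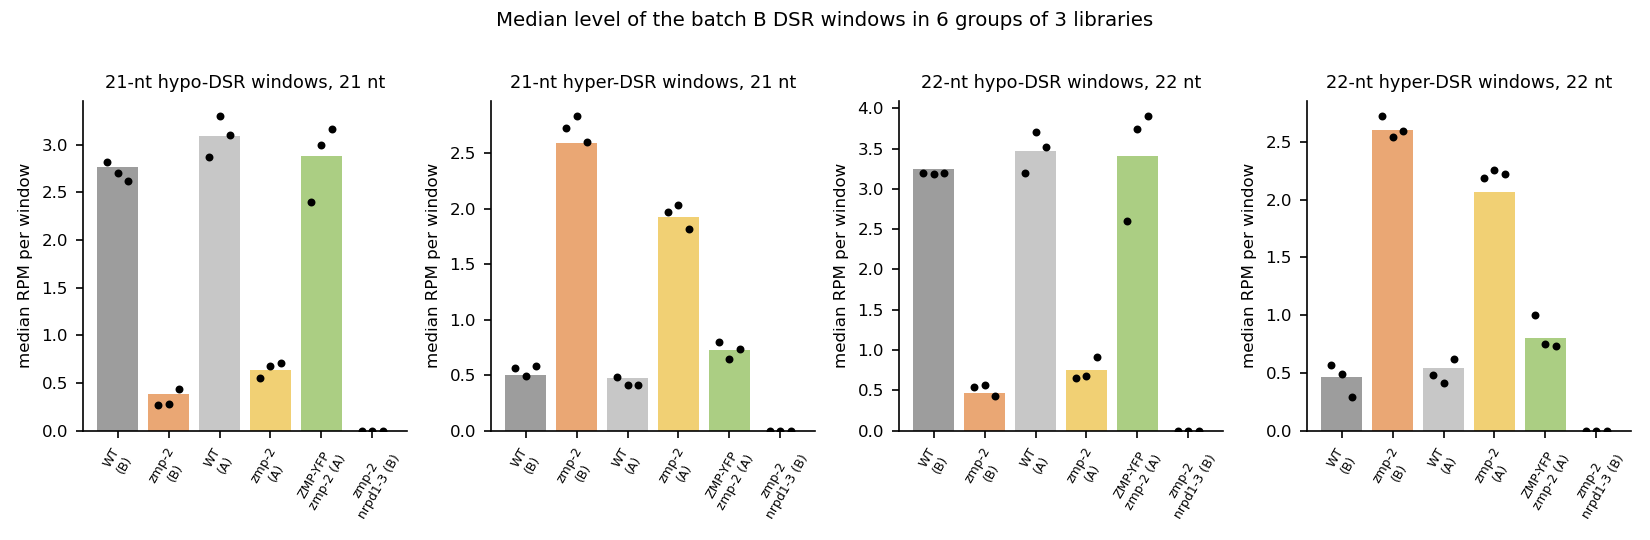
Median level per window, in RPM on the vertical axis, of the 21- and 22-nt hypo- and hyper-DSR windows in groups of 3 libraries from both batches, where bars are the median over windows of the group mean and points the median of each library. The *zmp-2* libraries of batch A lie below WT and ZMP-YFP in both hypo-DSR sets and above them in both hyper-DSR sets, and the double mutant lies at 0 in all 4.

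Reads of 24 nt in the same windows mostly changed in the same direction. The 3 lengths share libraries and scaling, so the counts are those the comparison itself defines. Of the 1644 hypo-DSRs of 21 nt, 1625 were also tested at 24 nt, and 1499 of these (92.2%) were 24-nt hypo-DSRs. For the 22-nt hypo-DSRs it was 2607 of 3163 (82.4%). For hyper-DSRs it was 302 of 439 (68.8%) at 21 nt and 525 of 757 (69.4%) at 22 nt. Among all windows tested at both lengths of a pair, 2921 of 13743 were 24-nt hypo-DSRs and 785 hyper-DSRs where 21-nt reads were tested, and 3952 and 1171 of 22528 where 22-nt reads were. No window was called in one direction at 21 or 22 nt and in the other at 24 nt.

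Windows in which 24-nt reads were not called still leaned the same way. Of the 126 hypo-DSRs of 21 nt without a 24-nt call, 122 had a 24-nt fold change of the same sign and 66 had an FDR of at most 0.05 without reaching 2-fold. Of the 556 such windows of 22 nt, 535 had the same sign and 145 passed the FDR alone. Of the 137 and 232 hyper-DSRs without a 24-nt call, 132 and 224 had the same sign and 37 and 34 passed the FDR alone. Among all windows tested at both lengths without a 24-nt call, 6793 of 10037 (21 nt) and 12021 of 17405 (22 nt) had the same sign. There 931 and 973 passed the FDR alone.

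Seen from the 24-nt side the overlap was smaller. Of the 24-nt hypo-DSRs with enough 21-nt reads to be tested, 1499 of 2921 (51.3%) were 21-nt hypo-DSRs, and 2607 of 3952 (66%) were 22-nt hypo-DSRs where 22-nt reads were tested. The hyper-DSRs gave 302 of 785 (38.5%) and 525 of 1171 (44.8%).

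The size of the change was somewhat larger at the shorter lengths. The median log2 fold change of the 21-nt hypo-DSRs was -2.81 at 21 nt and -2.27 at 24 nt, and that of the 22-nt hypo-DSRs was -2.76 at 22 nt and -2.0 at 24 nt. For hyper-DSRs it was 2.40 against 1.79 and 2.30 against 1.82. Windows were selected for a large change at the shorter length, which by itself makes the first value of each pair the larger, so these medians are a description. Over all windows tested the medians were -0.13 and -0.06 for 21 and 24 nt and -0.20 and -0.04 for 22 and 24 nt.

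**Figure D3:**
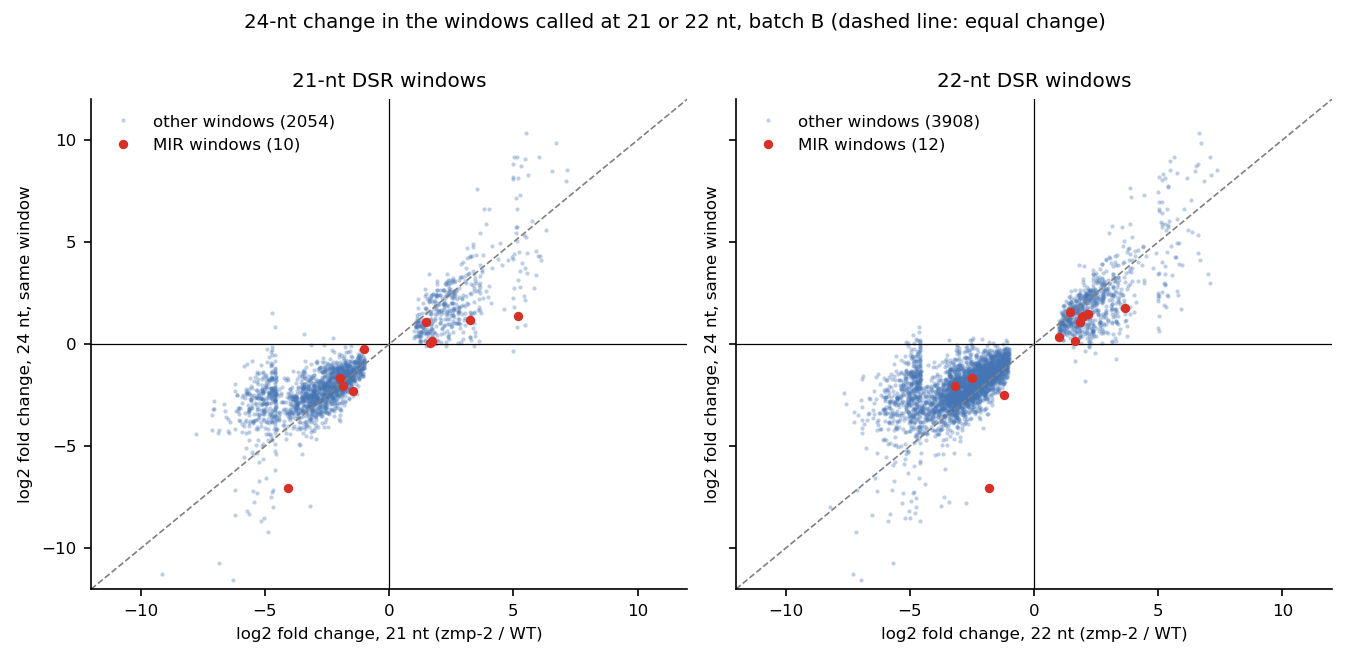
Log2 fold change of *zmp-2* against WT of 24-nt reads (vertical axis) against that of 21-nt reads (left) or 22-nt reads (right) for hypo- and hyper-DSRs of the shorter length that were also tested at 24 nt, 1 point per window, with MIR windows marked and a dashed line of equal change. Points lie mostly to the lower left and upper right for the 2054 and 3908 unmarked windows, and no called window lies opposite at 24 nt with a call of its own, and 10 and 12 windows are marked as MIR.

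Whether the 2 lengths changed by different amounts in a window was tested directly, as an interaction of read length and genotype with each library as a block. Of 13743 windows, 1 (0.00728%) had a lower and 4 (0.0291%) a higher ratio of 21-nt to 24-nt reads in *zmp-2* at an FDR of at most 0.05. Of 22528 windows, 17 (0.0755%) had a lower and 1 (0.00444%) a higher ratio of 22-nt to 24-nt reads, and 8 of those 17 were 22-nt hypo-DSRs. The ratio of a single window was measured with a median SE of 0.81 on the log2 scale over all windows at either length, and a shift of 1 SE would not pass. In simulated windows of 20 to 100 counts, a 4-fold higher ratio was called in 18 (21 nt) and 14 (22 nt) of 50. A 4-fold lower one was called in 4 and 5 of 50. At 100 counts or more these were 44 and 46, and 40 and 36, of 50. The small number of calls thus does not show that both lengths changed equally. At an unadjusted p of 0.05, 9.4% of 21-nt hypo-DSRs, 20.5% of 21-nt hyper-DSRs, 17.5% of 22-nt hypo-DSRs and 11.6% of 22-nt hyper-DSRs passed, against 5.3% and 6.3% of all windows. Selection of the DSRs for a large change at the shorter length by itself raises their shares.

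The AT2G15850 window described above was one of the 8 (log2 change of the ratio -0.66, FDR = 0.0048, and -0.53, FDR = 0.094, in batch A). Other windows with a changed ratio were of different kinds. The noncoding RNA gene AT1G08773, at chr1:24447801-24447900, held 10.5, 9.32 and 6.69 RPM of 22-nt reads in WT and 17.2, 9.06 and 6.07 RPM in *zmp-2*, which overlap. Its 24-nt level was 0.752, 0.245 and 0.291 RPM in WT and 5.17, 3.96 and 6.5 RPM in *zmp-2*, which do not. The log2 change of the ratio was -3.05 (SE 0.578, FDR = 0.0015), and in batch A it was -4.89 (FDR = 3e-08). Here 22-nt reads were the most frequent length and only the 24-nt reads were called.

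At chr2:4965801-4965900, between genes in a pericentromeric region, 22-nt reads went from 12.6, 17.9 and 17.5 RPM to 2.45, 0.849 and 0.867 RPM, while 24-nt reads went from 66.9, 62.6 and 81.7 RPM to 21.5, 27.7 and 32.5 RPM. Both fell, the 22-nt reads by more (log2 change of the ratio -1.99, SE 0.369, FDR = 0.0015), but the ratio was not called in batch A (-0.54, FDR = 0.92). At chr2:11045001-11045100 the 21-nt level was 73.8, 59.1 and 50.6 RPM in WT and 33.2, 35.9 and 36.4 RPM in *zmp-2*, with 24-nt levels of 332 ± 10.0 and 311 ± 16.3 RPM (n = 3, log2 change of the ratio -0.72, FDR = 0.00083). That ratio was not called in batch A either (0.38, FDR = 1).

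In AT4G29654, at chr4:14531701-14531800, the 21-nt level was 52.2, 44.9 and 27.6 RPM in WT and 85.0, 65.9 and 62.8 RPM in *zmp-2*, without overlap, with a change of the ratio to 24-nt reads of 0.60 on the log2 scale (SE 0.127, FDR = 0.016). Leaving out 1 library at a time left between 0 and 8 windows with a changed 21-nt ratio and between 4 and 16 with a changed 22-nt ratio, so these counts rest on single libraries.

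Losses made up a larger share of the windows in which 24-nt reads were the most frequent length than of those in which the counted length itself was, and gains did not. For 21-nt reads, 1612 losses and 421 gains were found in 13233 windows dominated by 24-nt reads (12.2% and 3.18%), and 25 and 32 among 948 windows dominated by 21-nt reads (2.64% and 3.38%). For 22-nt reads there were 3145 and 734 among 21843 windows dominated by 24-nt reads (14.4% and 3.36%) and 18 and 20 among 461 dominated by 22-nt reads (3.90% and 4.34%). Under RPMR the 948 windows gave 36 hypo-DSRs and 13 hyper-DSRs, so the balance of directions among windows dominated by 21-nt reads turned with the scaling.

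Of these calls in windows dominated by their own length, 31 of the 57 at 21 nt and 32 of the 38 at 22 nt lay outside MIR genes. At 21 nt the 11 hypo-DSRs among them included 8 in coding sequence, and the 20 hyper-DSRs included 10 between genes, and at 22 nt 8 of the 18 hyper-DSRs were in pseudogenes. Over the whole library, 21-nt reads were 13.86% ± 0.74 of the 21- to 24-nt reads in WT and 14.07% ± 0.12 in *zmp-2* (mean ± SD, n = 3), a difference of 0.21 percentage points (two-sided exact permutation test, p = 0.7). Reads of 22 nt were 11.81% ± 0.26 in WT and 11.32% ± 0.19 in *zmp-2*, a difference of -0.49 points with no overlap of the groups (exact permutation test, p = 0.1, adjusted 0.2), and 0.1 is the smallest p that 3 against 3 libraries can give.

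None of the TAS windows was called by edgeR's quasi-likelihood test. The list was made of 8 TAS genes, 7 of which had windows that could be tested, 38 windows at 21 nt and 32 at 22 nt, with median log2 fold changes of 0.22 and 0.05. At an unadjusted p under 0.05, 3 and 5 of these windows passed, beside 3819 of 14456 and 6365 of 22908 over all windows. DESeq2 called 0 and 1, the latter a gain in *TAS3C* that passed the FDR but not the 2-fold minimum in edgeR. *TAS1C* gave the most reads in sum, not scaled to gene length, with 4040, 3715 and 2807 RPM of 21 nt in WT and 3975, 3120 and 3560 RPM in *zmp-2*. *TAS2* gave 1332, 1577 and 1292 RPM in WT and 1917, 1789 and 1258 RPM in *zmp-2*. *TAS3A*, whose siRNAs act on auxin response factors, gave 529, 611 and 525 RPM in WT and 826, 747 and 484 RPM in *zmp-2*. The groups overlapped for each of the 3 genes, as they did for *MIR390a*, whose miRNA triggers *TAS3*, with 213, 143 and 210 RPM in WT and 157, 151 and 187 RPM in *zmp-2*.

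Windows in the genes of the small RNA pathway itself, 10 at 21 nt and 4 at 22 nt in 3 genes, gave no call, nor did the 11 and 5 windows tested in 5 and 3 of 6 auxin receptor and response factor genes that are targets in phased siRNA pathways. In genes annotated as disease resistance proteins 1 of 45 windows at 21 nt and 1 of 38 at 22 nt was a hyper-DSR, beside 3.19% and 3.35% of all windows. In pentatricopeptide repeat genes, a frequent source of phased siRNAs, 2 of 74 windows were hypo-DSRs and 1 a hyper-DSR at 21 nt and none of 49 was called at 22 nt, and the gains of both lists were not called under RPMR. In the first 2 of these lists 1 window in all, of 21 nt, had an unadjusted p under 0.05. So had 4 and 2 disease resistance windows at 21 and 22 nt, and 16 and 5 pentatricopeptide windows. DESeq2 called no window of these lists. The medians of these lists ran from -0.40 to 0.43, against -0.12 and -0.20 over all windows.

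MIR genes as a list did not move in one direction. Of 329 MIR windows tested with 21-nt reads, in 214 genes, 15 were hypo-DSRs and 15 hyper-DSRs (22 and 7 under RPMR), beside 11.4% and 3.19% of all windows, with a median log2 fold change of 0.02. Of 214 MIR windows tested with 22-nt reads, in 155 genes, 15 were hypo-DSRs and 12 hyper-DSRs (16 and 7 under RPMR), beside 13.9% and 3.35% of all windows, with a median of 0.13. The called windows belonged to 41 genes. DESeq2 called only 13 of the 329 windows at 21 nt and 9 of the 214 at 22 nt. Losses at the miR398a-3p window, *MIR397b*, *MIR165b*, *MIR166g* and *MIR856*, given below, were among those it did not call.

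The windows of the mature miRNA were not called in the highest-expressed MIR genes. *MIR159a* gave a mean of 10914 RPM of 21-nt reads in WT and 10609 RPM in *zmp-2*, *MIR159b* 8136 and 6974 RPM and *MIR319a* 7365 and 6869 RPM. A window of few reads beside the mature one in *MIR159a*, at chr1:27713301-27713400, was a hyper-DSR with 2.63, 2.21 and 3.20 RPM of 21-nt reads in WT and 6.53, 4.53 and 6.5 RPM in *zmp-2* (log2 fold change 1.12, FDR = 0.017), and 5 of 12 alternatives, RPMR and DESeq2 among them, did not call it. miR159 and miR319 are related miRNAs that act on MYB and TCP transcription factor mRNAs. All MIR genes together gave 64264, 54457 and 57890 RPM of 21-nt reads in WT and 51686, 55275 and 50845 RPM in *zmp-2*, and these ranges overlap.

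*MIR408* showed the largest loss of an abundant miRNA. miR408 acts on mRNAs of laccases and of plantacyanin, and plants make it when copper is scarce. The window of its mature strand, at chr2:19319901-19320000, held 742, 597 and 433 RPM of 21-nt reads in WT and 75.7, 131 and 104 RPM in *zmp-2* (log2 fold change -2.51, SE 0.213, FDR = 4.2e-14). Its 22-nt reads fell as well, from 12.0 ± 1.18 to 3.27 ± 1.93 RPM (log2 fold change -1.95, FDR = 3.1e-08). The neighbouring window with miR408-5p held 156, 195 and 222 RPM in WT and 35.9, 79.8 and 91.0 RPM in *zmp-2* (log2 fold change -1.48). Neither length overlapped between the groups, and the mature window held almost no 24-nt reads.

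The other miRNAs known to respond to copper were looked at after these values had been seen. The miR398a-3p window at chr2:1041001-1041100 held 72.5, 42.7 and 77.4 RPM of 21-nt reads in WT and 3.27, 25.5 and 26.9 RPM in *zmp-2* (log2 fold change -1.83, FDR = 2.4e-06). miR398 acts on mRNAs of copper/zinc superoxide dismutases. The neighbouring window of the same gene, with miR398a-5p, went the other way, from 0.752, 1.72 and 0.873 RPM in WT to 5.17, 3.11 and 1.30 RPM in *zmp-2*, which overlap (log2 fold change 1.61, FDR = 0.016), and 4 of 12 alternatives did not call this gain. *MIR397b*, whose miRNA acts on laccase mRNAs, held 23.1, 43.7 and 47.7 RPM in WT and 5.99, 26.6 and 15.6 RPM in *zmp-2* in its mature window (log2 fold change -1.24, FDR = 0.00048), which overlap in 1 library of each group. *MIR397a* was called at 22 nt, with 7.14 ± 2.16 RPM in WT and 2.07 ± 0.489 RPM in *zmp-2* (log2 fold change -1.80, FDR = 3.9e-05), and *MIR857* was not called, with 1.67 and 0.478 RPM of 21-nt reads. In *zmp-2* the first replicate had the lowest value of the 3 at *MIR408*, *MIR398a* and *MIR397b*.

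*MIR398b* also changed in both directions within 1 gene. The window of miR398b-5p at chr5:4691001-4691100 held 769, 501 and 163 RPM in WT and 1217, 2057 and 1429 RPM in *zmp-2* (log2 fold change 1.71, FDR = 5.9e-07), and the window of miR398b-3p next to it held 828, 708 and 322 RPM in WT and 236, 407 and 243 RPM in *zmp-2* (log2 fold change -1.07, FDR = 0.00027), a loss that 7 of 12 alternatives did not call. Both sequences are also found in *MIR398c*. When the windows of both loci were summed, those with the 5p sequence held 2117, 3224 and 3862 RPM in WT and 1217, 3949 and 3808 RPM in *zmp-2* (log2 fold change -0.04, FDR = 0.95). Those with the 3p sequence held 2176, 3431 and 4021 RPM in WT and 236, 2299 and 2622 RPM in *zmp-2* (-0.90, FDR = 0.045). Both sums include the same *MIR398c* window, at chr5:4694701-4694800, with 1348 to 3699 RPM in WT and 0 to 2379 RPM in *zmp-2*, and so do not separate the strands. The sums thus cannot tell whether either strand changed over both loci. The 5p sum showed no gain, and the 3p sum fell by less than 2-fold and overlapped.

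Loci of miR165 and miR166, which act on mRNAs of HD-ZIP III transcription factors, held both losses and a gain. In the *MIR165b* window the 22-nt level was 218, 84.9 and 169 RPM in WT and 47.9, 67.9 and 81.0 RPM in *zmp-2* (log2 fold change -1.27, FDR = 2.5e-11). In the *MIR166g* window it was 99.8, 24.5 and 111 RPM in WT and 8.71, 37.9 and 24.3 RPM in *zmp-2* (log2 fold change -1.74, FDR = 4.5e-13), where the groups overlap. *MIR166f* fell from 394 ± 158 to 184 ± 70.3 RPM and *MIR165a* from 30.2 ± 11.6 to 11.7 ± 2.09 RPM of 22-nt reads, and 6 of 12 alternatives did not call *MIR166f*. The window of miR166b-5p rose at both lengths, from 5.82, 1.96 and 2.62 RPM to 8.17, 11.9 and 14.7 RPM of 21-nt reads (log2 fold change 1.64, FDR = 9.5e-05, called under all 12 alternatives) and from 1.23 ± 1.04 to 4.06 ± 1.43 RPM of 22-nt reads (1.71, FDR = 0.0035). Its sequence is also found in *MIR166a*, and the sum of both loci did not pass the test at 21 nt (log2 fold change -0.04, FDR = 0.94).

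Summed over the loci of each sequence, 22-nt reads in miR165 windows went from 260, 104 and 199 RPM to 57.2, 80.7 and 94.0 RPM (log2 fold change -1.29), and their 21-nt reads from 998, 614 and 714 to 436, 423 and 347 RPM (-0.95, FDR = 0.00037). For the 7 loci of miR166 the 21-nt reads were 4931 ± 1002 RPM in WT and 3821 ± 152 RPM in *zmp-2* (-0.37, FDR = 0.24) and the 22-nt reads 1077 ± 404 and 675 ± 227 RPM (-0.68). In batch A the mean of this 22-nt sum went the other way, from 546 ± 452 RPM in WT to 908 ± 324 RPM in *zmp-2* (0.74, FDR = 0.0056). The groups overlapped there (106, 1008 and 523 against 1142, 538 and 1044 RPM), with the first WT library lowest. They also overlapped in batch B (1386, 620 and 1226 against 416, 769 and 839 RPM). In the joint fit of both batches described below, the difference passed in RPM (FDR = 4.2e-07) but not under RPMR (FDR = 0.4). In batch B the reduction was thus larger at 22 nt than at 21 nt in both families, though the difference between lengths was not tested.

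Among the gains, *MIR395b*, of a family that plants induce when sulfate is scarce, held no 21-nt read in any WT library of batch B and 5.99, 2.55 and 7.80 RPM in *zmp-2*, at least 7.77-fold higher. The same sequence is found in *MIR395c* and *MIR395f*, and the 3 loci together gave 3.57 ± 1.77 RPM in WT and 8.86 ± 2.24 RPM in *zmp-2* (log2 fold change 1.34, FDR = 0.0016). In batch A the sum did not pass the test, with 6.60 ± 1.98 and 8.55 ± 1.37 RPM (0.41, FDR = 0.32). *MIR395a* of the same family was a hypo-DSR, with 0, 1.23 and 1.75 RPM of 21-nt reads in WT and none in *zmp-2*, which 5 of 10 alternatives did not call. *MIR840* gained reads of both lengths, with 11.3, 5.64 and 14.0 RPM of 22-nt reads in WT and 29.1, 29.1 and 55.9 RPM in *zmp-2* (log2 fold change 1.86, FDR = 4.9e-14). *MIR156d* rose from 146, 106 and 118 to 254, 214 and 306 RPM of 21-nt reads (log2 fold change 1.06 in RPM and 0.82 in RPMR, below 2-fold). miR156 acts on SPL transcription factor mRNAs and is annotated as a 20-nt miRNA, so these reads are not of its main length.

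Of the remaining MIR windows, that of miR168a-3p in *MIR168a* went from 129, 84.9 and 134 RPM to 52.8, 56.3 and 62.4 RPM of 21-nt reads (log2 fold change -1.02). Of 12 alternatives 7 did not call it, among them those without WT replicate 1 or 3 or *zmp-2* replicate 1. Its values were -1.21 to -0.91 when single libraries were left out. The miR168a-5p sequence lies in another window, which was not called, and is also found in *MIR168b*. Summed over both loci its windows changed by less than 2-fold (log2 fold change -0.52, FDR = 0.05). *MIR831* and *MIR856*, in which 22-nt reads prevailed, fell from 28.4 ± 2.8 to 12.4 ± 3.41 RPM and from 5.75 ± 1.32 to 2.22 ± 1.01 RPM of 22-nt reads (n = 3). A *MIR157a* window lost its 21-nt reads (5.82, 9.82 and 7.27 RPM in WT, 0.817, 0 and 0.433 RPM in *zmp-2*) along with its 24-nt reads (4.27 ± 1.78 RPM in WT, none in *zmp-2*). Its mature sequences are also found in *MIR157b*, whose window gained 22-nt reads (log2 fold change 5.17, not called by DESeq2). Summed over loci, 21-nt reads changed by -2.45 (FDR = 5e-06) in windows with the 3p sequence and by -0.15 (FDR = 0.75) in those with the 5p sequence. The part of read placement was not tested. *MIR169d* was called on 1 library of each group, with 53.9, 0 and 0 RPM in WT and 13.1, 0 and 0 RPM in *zmp-2*.

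A few annotated MIR genes behaved as windows of 24-nt reads. *MIR8180*, in a pericentromeric region, went from 9.58, 8.83 and 7.85 RPM to 1.36, 0.849 and 0.433 RPM of 22-nt reads (log2 fold change -3.18) and from 17.2 ± 1.97 to 4.11 ± 0.592 RPM of 24-nt reads (-2.04). The 5 loci of miR854, a repeated sequence on chromosome 5, together rose from 0.722 ± 0.642 to 3.69 ± 1.06 RPM of 21-nt reads (log2 fold change 2.20, FDR = 0.0014). In these windows 24-nt reads were the most frequent length.

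**Figure D4:**
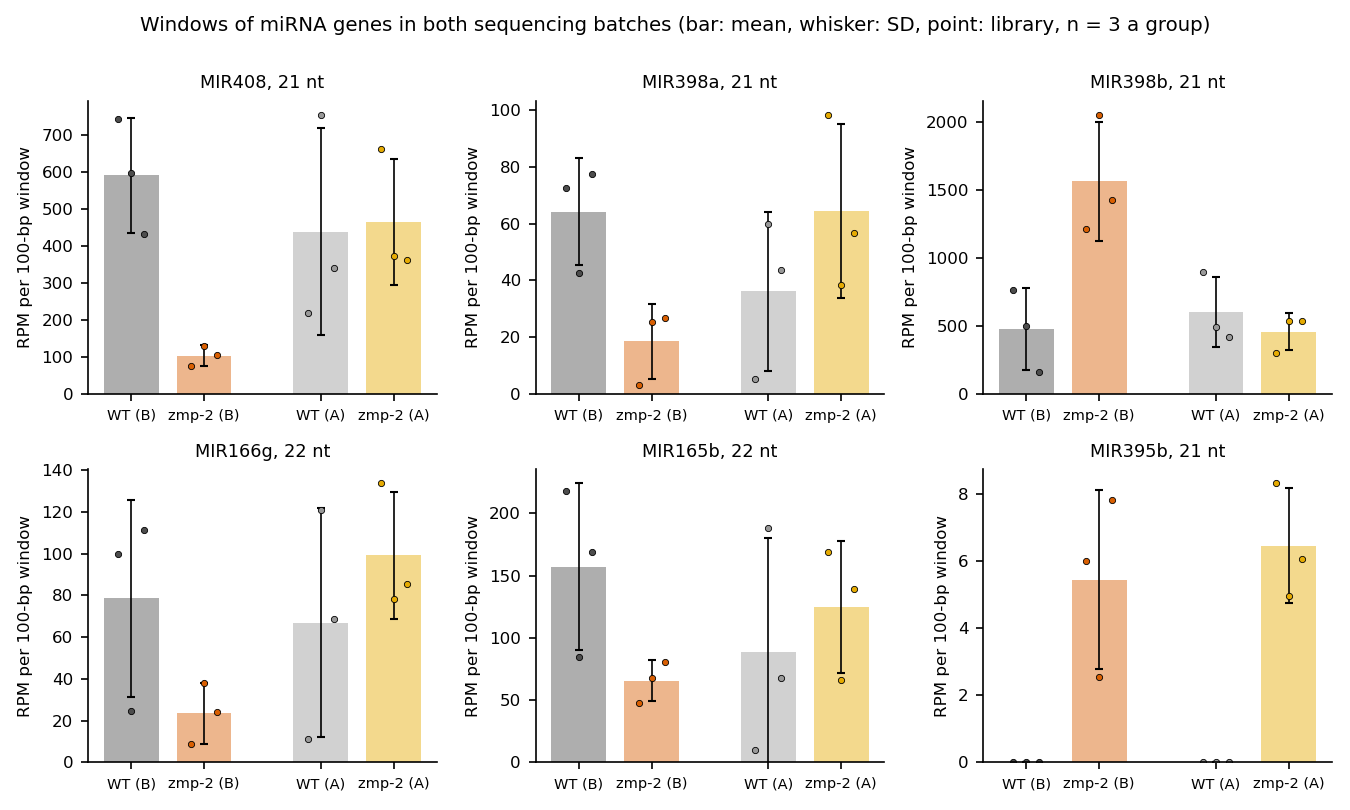
Level of 21-nt reads (*MIR408*, *MIR398a*, *MIR398b*, *MIR395b*) or 22-nt reads (*MIR166g*, *MIR165b*) in MIR windows of WT and *zmp-2* in batches B and A, in RPM on the vertical axis, where bars are the mean of 3 libraries, whiskers 1 SD and points single libraries. In batch B *zmp-2* does not overlap with WT except at *MIR166g*, and in batch A it does except at *MIR395b*, with no read in WT and 4.96 to 8.32 RPM in *zmp-2*.

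The WT and *zmp-2* libraries of batch A were fitted apart, with no library in common with batch B. Whether the plants of the batches were separate is not stated. There 2609 windows of 26376 (9.89%) were 21-nt hypo-DSRs and 1163 (4.41%) hyper-DSRs, and 4077 of 42965 (9.49%) were 22-nt hypo-DSRs and 2402 (5.59%) hyper-DSRs. Under RPMR the hyper-DSRs of batch A went from 30.8% to 17.4% of calls at 21 nt and from 37.1% to 22.2% at 22 nt.

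Outside MIR genes most hypo-DSRs of batch B were called again in batch A. At 21 nt this held for 1281 of 1593 hypo-DSRs that could be tested (80.4%) and 242 of 416 hyper-DSRs (58.2%), and at 22 nt for 2434 of 3102 (78.5%) and 460 of 729 (63.1%), all above the shares of all windows called in batch A. The 22-nt hypo-DSRs included 7 windows called in the opposite direction, and the other sets none. There the AT2G16030 window changed by -4.18 on the log2 scale at 21 nt, the AT2G15850 window -3.06 at 22 nt, the AT5G28560 window -4.09 at 22 nt and the AT2G16580 window 3.94.

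Of the MIR windows, 2 of 15 hypo-DSRs and 2 of 14 hyper-DSRs of 21 nt were called in batch A in the same direction (13.3% and 14.3%), and 2 of 15 and 4 of 9 at 22 nt (13.3% and 44.4%). The sign was the same for 8 and 12 of them at 21 nt and for 8 and 9 at 22 nt. Their changes in batch B were smaller than those outside MIR genes, with medians of -1.62 and 1.49 against -2.82 and 2.40 at 21 nt and of -1.74 and 1.79 against -2.76 and 2.32 at 22 nt, and the difference in recurrence was not tested. Among MIR windows in which 24-nt reads were not the most frequent length, 1 of 14 hypo-DSRs and 1 of 13 hyper-DSRs of 21 nt were called again, and 1 of 14 and 0 of 4 at 22 nt. Of these 3 windows, the hyper-DSR of 21 nt was *MIR395b*, with a mean of 6.45 RPM in *zmp-2* and none in WT, the hypo-DSR of 21 nt was *MIR157a* (log2 fold change -1.11, FDR = 0.0029), and the hypo-DSR of 22 nt was *MIR856* (-1.31, FDR = 0.00024). *MIR408* had 438 RPM of 21-nt reads in WT and 465 RPM in *zmp-2* of batch A (log2 fold change 0.09, FDR = 0.88).

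**Figure D5:**
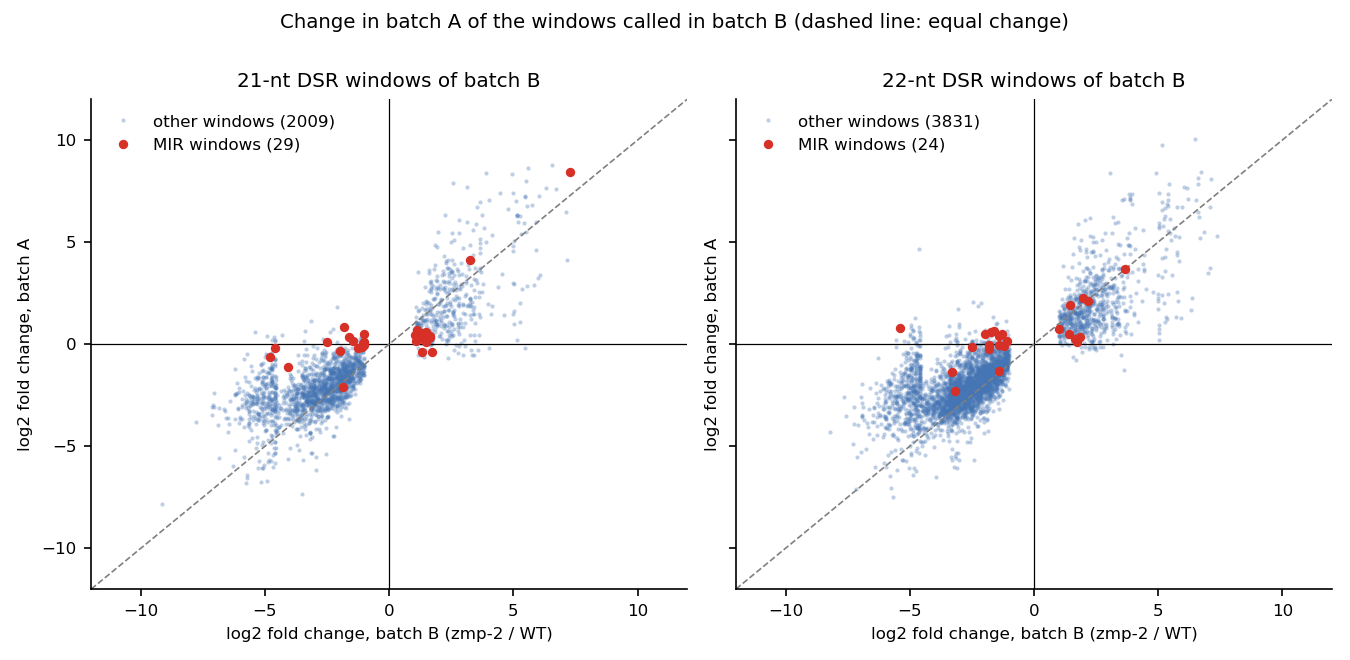
Log2 fold change of *zmp-2* against WT in batch A (vertical axis) against that in batch B (horizontal axis) for the hypo- and hyper-DSRs of batch B, 21 nt on the left and 22 nt on the right, 1 point per window with MIR windows marked. Most of the 2009 and 3831 unmarked windows lie on the same side of 0 in both batches, while among the 29 and 24 marked MIR windows the hypo-DSRs scatter around 0 on the batch A axis, with medians of -0.02 and -0.03, and the hyper-DSRs lie mostly above it, with medians of 0.36 and 0.76.

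A joint fit of the 12 libraries of these genotypes, added after these values had been seen, tested the difference between batches itself at an FDR of at most 0.05. Of 37317 windows with 21-nt reads 21 (0.0563%) had a lower and 2 (0.00536%) a higher fold change in batch B than in batch A, and of 58153 with 22-nt reads 33 (0.0567%) and 6 (0.0103%). Of these 23 and 39 windows, 13 and 12 were in MIR genes, which held 1.20% and 0.590% of the windows tested. Under RPMR 7 and 18 windows passed, 5 of each in MIR genes.

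The *MIR408* window was among them, with a difference of -2.6 on the log2 scale (SE 0.320, FDR = 8.7e-12), which also passed under RPMR and without any 1 of the 12 libraries. In batch A the *MIR408* level ran from 220 to 754 RPM in WT and from 362 to 662 RPM in *zmp-2*. At several of the other MIR windows the first WT replicate of batch A was low. It had 5.27 RPM at *MIR398a* beside 59.8 RPM in the highest WT library, and 9.59 RPM of 22-nt reads at *MIR165b* beside 189 RPM. Genotype and batch were crossed, with 3 libraries in each cell, and what differed between the batches besides sequencing was not tested.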

How the data were processed

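Small RNA was gel-purified from inflorescences and sequenced, and 6 of the 23 libraries are the subject here. The authors aligned reads to TAIR10 without mismatches (the submitters' notes name Bowtie 1.1.0), placed reads with several matches by the density of unique reads nearby, and counted 5′ ends per 100-bp window and read length. The deposited files give the whole-number count, that count in RPM (reads per 1000000 mapped reads of all lengths, by the authors) and in RPMR, a score scaled to 45S rRNA reads. Windows not listed were taken as 0. Library sizes were recovered as the count divided by its RPM, and ranged from 2.31 to 5.32 M (1000000) reads in batch B.

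Counts were tested with edgeR 4.0.16 (quasi-likelihood, R 4.3.3) on windows of at least 10 counts, with Benjamini-Hochberg adjustment over all windows of a length, a 2-fold minimum and an FDR of at most 0.05. The change of the ratio of lengths was an interaction with each library as a block, judged by FDR alone. Shares were compared by exact permutation. Fits were tested on simulated counts. At 20 to 100 expected counts, 21 of 25 gains of 4-fold but 2 of 25 losses of 4-fold were called at 21 nt, and 20 and 4 of 25 at 22 nt. At 100 counts or more these were 25 and 22, and 25 and 23. Losses in low windows were thus mostly missed in the simulation. Alternatives were RPMR, TMM, other library sizes, a replicate block, DESeq2 1.42.0, other filters and leaving out each library. Called windows at most 200 bp apart were joined into loci. Annotation and sequences are from RefSeq TAIR10.1, whose chromosome lengths match the files.

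Named windows were, for each length and direction, the 5 loci of smallest FDR called under RPM and RPMR without overlap of the groups, every MIR or TAS gene with a call, the highest MIR and TAS genes, and the 3 ratio windows of smallest FDR in each direction, of which the most informative are described. The windows compared and the gene lists were chosen with earlier results of these data known. P-values of edgeR rest on the spread between these 3 libraries per group, pooled with that of other windows of similar level. A window whose own libraries spread more can thus have a small FDR, even where the groups overlap, as at *MIR166g*. Floors and counts cover counting error only.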

Additional observations from a re-analysis of the deposited data

Results flagged for a closer look

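These MIR windows had a fold change of *zmp-2* against WT that differed between batch B and batch A by the interaction test of edgeR with Benjamini-Hochberg adjustment, among windows called in batch B, with differences given as batch B minus batch A on the log2 scale. At 21 nt the difference was -2.6 for the *MIR408* mature window, -1.61 for the window of its 5p strand, -2.68 for *MIR398a*, -1.96 for *MIR166c*, -1.52 for *MIR168a*, -2.99 for *MIR157a* and -1.65 for *MIR169d*, and it was 2.1 for the *MIR398b* 5p window. At 22 nt it was -2.43 for *MIR408*, -2.32 for *MIR166g*, -1.79 for *MIR165a*, -1.78 for *MIR165b*, -2.22 for *MIR166c*, -1.23 for *MIR166f*, -2.39 for *MIR169d* and -6.64 for *MIR156b*, and it was 1.51 for *MIR840*.

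The differences at the mature *MIR408* window (both lengths), *MIR398a*, *MIR166c* at 21 nt, *MIR398b*, *MIR165a*, *MIR165b* and *MIR166g* passed also under RPMR and without any 1 of the 12 libraries. That of *MIR168a* passed without any 1 library but not under RPMR (FDR = 0.54). The others lost the call without 2 to 5 of the 12 libraries in turn. *MIR169d* ranged from -9.32 to 7.96 at 21 nt and from -7.17 to 4.86 at 22 nt when single libraries were left out. No cause was tested.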

How the results depend on the processing

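The excess of hypo-DSRs over hyper-DSRs was found for both lengths under each alternative tried, while the counts moved. With DESeq2 there were 849 DSRs of 21 nt (673 hypo, 176 hyper), 1837 of 22 nt (1468 hypo, 369 hyper) and 5385 of 24 nt (1325 hyper). With no filter on low counts there were 1299 of 21 nt (1050 hypo, 249 hyper) and 449 hyper-DSRs of 22 nt. With at least 30 counts there were 1326 of 21 nt (1071 hypo, 255 hyper), 441 hyper-DSRs of 22 nt and 33 windows with a changed 22-nt ratio (32 lower), and in batch A 2483 of 21 nt (1736 hypo, 747 hyper) and 1539 hyper-DSRs of 22 nt. These filters test other numbers of windows. Under RPMR the hyper-DSRs were 290 (21 nt), 507 (22 nt) and 1805 (24 nt), and 685 and 1428 in batch A, and the windows that differed between batches were 7 and 18. Scaling to the MIR reads instead made hyper-DSRs 31.2% of the 21-nt calls, against 21.9% in RPM, and 44.1% of the 24-nt calls, against 33.9%.

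Leaving out single libraries gave 1455 to 1803 DSRs of 21 nt (1140 to 1400 hypo, 297 to 403 hyper), 3090 to 3507 of 22 nt (2487 to 2874, 543 to 653) and 6532 to 7533 of 24 nt (4587 to 5023, 1883 to 2510). The 21-nt hyper-DSRs fell to 300 without *zmp-2* replicate 1 and to 297 without replicate 2, and the 24-nt ones to 1883 without replicate 2. Changed ratios numbered 0 to 8 for 21 nt (0 to 4 lower, 0 to 6 higher) and 4 to 16 for 22 nt (4 to 16, 0 to 1). Batch A gave 2818 to 3365 of 21 nt (2043 to 2375, 699 to 990) and 4704 to 5792 of 22 nt (3213 to 3682, 1286 to 2110), with hyper-DSRs of 21 nt at 701 without WT replicate 1, 775 without *zmp-2* replicate 1 and 699 without replicate 3, and of 22 nt at 1304 without WT replicate 1 and 1286 without *zmp-2* replicate 3. Windows that differed between batches numbered 19 to 40 and 24 to 41, with 40 without WT replicate 2 of batch A and 24 without WT replicate 1 of batch B or *zmp-2* replicate 3 of batch A. The difference in the share of 21-nt reads ran from -0.086 (without WT replicate 2, turning its sign) to 0.63 points and that of 22-nt reads from -0.609 to -0.354. *MIR169d* turned to 7.05 on the log2 scale without WT replicate 1 and was -9.15 without *zmp-2* replicate 1.

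Libraries of the same replicate number did not deviate together more than others (correlations of -0.061 to 0.050 at 21 nt, beside -0.11 to 0.065 for different numbers). With 3 libraries per group this cannot exclude a pairing, and the main fits used none. With the replicate block there were 1807 DSRs of 21 nt (1411 hypo, 396 hyper), 3423 of 22 nt (2803, 620) and 7895 of 24 nt. Of 76 named fold changes, 63 kept their call under RPMR and 40 with DESeq2.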
